A study of Mus musculus with 32 samples.

Results

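The transcriptome of cultured mouse cortical neurons exposed for 6 h to miR-92a-1-5p was compared directly to that of neurons exposed for 6 h to Mut.oligo, in order to ask which genes depend on the sequence of the extracellular oligoribonucleotide. Members were the 4 libraries labelled miR-92a-1-5p at 6 h and the 4 libraries labelled Mut.oligo at 6 h, that is, 8 of the 32 libraries of the series. All 8 came from primary cortical neurons of C57BL/6 mouse embryos that received 10 µg/mL of a synthetic, 5′-phosphorylated oligoribonucleotide with phosphorothioate bonds in the medium, without a transfection reagent. Mut.oligo carries a mutated sequence of let-7b and served the study as a control for sequence specificity, so that both groups contained an added RNA and differed in its sequence. The 4 untreated libraries of the same time point are given as a background range. Together with the 4 libraries of the remaining oligoribonucleotide, miR-124-5p, they entered the fits over 16 libraries, where they contribute to the estimate of the spread and, with the experiment batch as a term, to the batch coefficients and thereby to the fold changes. Each library also names an experiment batch, and 2 libraries of each group shared a batch with a library of the other group. These were miR-92a-1-5p replicate 2 with Mut.oligo replicate 3, termed here the first shared batch, and miR-92a-1-5p replicate 3 with Mut.oligo replicate 1, termed the second shared batch. The remaining 2 libraries of each group had no partner of the other group in their batch. For 3 of them, the batch held an untreated or a miR-124-5p library, whereas Mut.oligo replicate 4 was the only library of its batch, so that batch and treatment cannot be told apart for it.

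The libraries held 36367192 to 73626029 counted reads after miR-92a-1-5p and 24514090 to 32901396 after Mut.oligo exposure, so that every miR-92a-1-5p library was sequenced more deeply. A count of 3 reads in a single library corresponded to 0.0407 to 0.0825 CPM (read counts scaled to the library total) in the former and 0.0912 to 0.122 CPM in the latter. Such floors reflect counting error alone. The neuronal markers fitted the label, with a summed level of 14 marker genes of 6028 to 6916 CPM after miR-92a-1-5p and 6023 to 6978 CPM after Mut.oligo. Markers of microglia and macrophages were present at low levels, at 58.3 to 78.0 CPM and 49.7 to 87.6 CPM in sum over 19 tested genes. In bulk RNA, fewer cells of a type and less RNA per cell cannot be told apart.

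MiRNAs silence mRNAs inside the cell through a seed, bases 2 to 8 of the mature strand, which pairs with sites in the 3′ UTR of target transcripts. Outside the cell, miRNAs can be taken up into endosomes, where Toll-like receptor 7 (TLR7) senses single-stranded RNA, in particular RNA rich in G and U. TLR7 signals through the adaptor MyD88 to NF-kB, which in microglia and other innate immune cells switches on cytokine and chemokine genes, and to interferon regulatory factors. The mature sequences of miR-92a-1-5p and of let-7b, from which Mut.oligo was derived, are shown for their seeds. No library received let-7b itself. They are RefSeq entries on GRCm38.p6, read 5′ to 3′, with the seed in capitals.
mmu-miR-92a-1-5p: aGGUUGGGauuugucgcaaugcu
mmu-let-7b-5p: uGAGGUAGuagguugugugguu
The first is encoded at chr14:115044437-115044459 and the second at chr15:85707325-85707346, both on the plus strand. Of the 23 bases of miR-92a-1-5p, 16 are G or U (69.6%). The share in Mut.oligo is not given here. The seeds differ, and according to the study's methods Mut.oligo keeps the seed of let-7b and is altered downstream of it. Hence, a gene can differ between the groups through either seed, or through sensing of one RNA and not of the other, and the comparison itself does not separate these.

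No gene passed the test between the groups. Of 18755 genes tested, 0 (0%) were higher and 0 (0%) were lower after miR-92a-1-5p with adjusted p below 0.05 and an absolute log2 fold change above 0.5 (edgeR quasi-likelihood test over the 16 libraries of 6 h), and the smallest adjusted p was 1.00. DESeq2 without a covariate called 0 genes in either direction as well. At an unadjusted p under 0.05, edgeR counted 398 genes (2.12%), 224 of them with higher and 174 with lower levels after miR-92a-1-5p, and DESeq2 counted 295. All 4 miR-92a-1-5p libraries lay above all 4 Mut.oligo libraries for 142 genes (0.757%) and below them for 103 genes (0.549%).

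The comparison was nevertheless precise for most expressed genes. Among the 13534 genes with a mean of at least 1 CPM over the 8 libraries, the median standard error of the log2 fold change was 0.08, and 99.0% of the log2 fold changes lay between -0.5 and 0.5. For 97.9% of these genes, the 95% interval of the difference lay within a doubling or halving in either direction, and for 84.0% it lay within 0.5 on the log2 scale. Larger differences were found among genes with low levels, as the plot of difference against level shows.

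**Figure D1:**
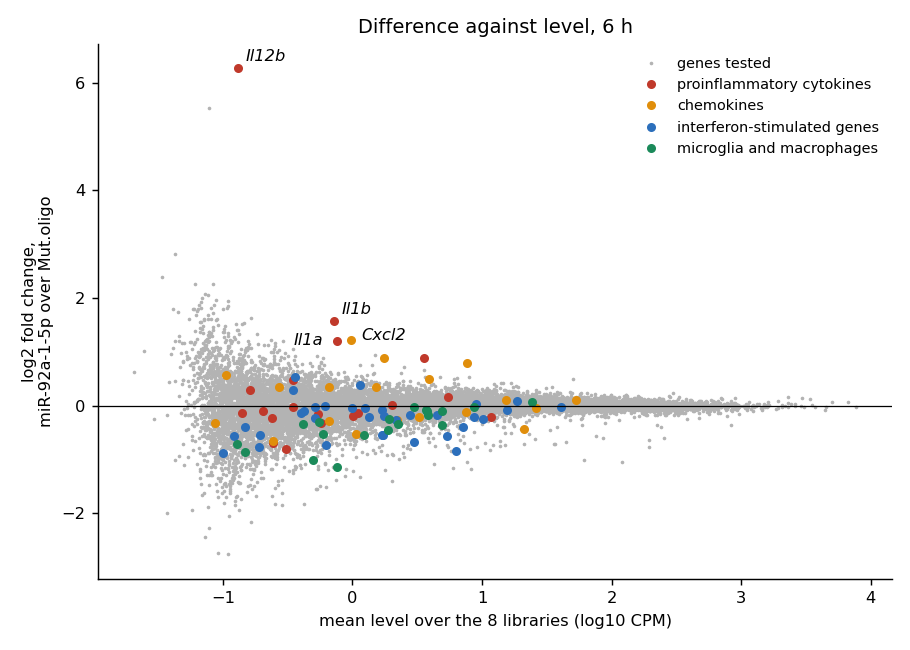
Log2 fold change of miR-92a-1-5p over Mut.oligo (vertical axis) against the mean level over the 8 libraries in log10 CPM (horizontal axis) for the 18755 genes tested at 6 h. Grey points are genes and coloured points are members of 4 lists. Differences narrow with rising level, Il1b, Il1a and Cxcl2 lie above the bulk of genes of like level, and the fitted value of Il12b rests on 0 reads in all 4 Mut.oligo libraries and is no estimate of its size.

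Several inflammatory genes of the kind that TLR signaling is known to induce had higher levels after miR-92a-1-5p. These were Il12b, Il1b, Il1a, Tnf, Ccl3, Ccl4, Cxcl2, and Ptgs2. Apart from Il12b, which had no read in Mut.oligo libraries, the fold changes of these genes lay between 1.74 and 2.98. The groups did not overlap for 5 of the 8 genes, compared to 0.757% of all genes tested, and all 8 were higher within both shared batches, compared to 24% of all genes. None of the 8 passed the adjusted threshold. They were brought together after their values were seen, so that these counts are a description.

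Il12b encodes the p40 subunit that interleukin 12 and interleukin 23 share, and lies at chr11:44400063-44414033. It had 6, 11, 16, and 19 reads in miR-92a-1-5p replicates 1 to 4, which correspond to 0.166, 0.243, 0.388, and 0.252 CPM. All 4 Mut.oligo libraries had 0 reads. Over the groups, 52 of 196874726 reads stood against 0 of 114218950 (edgeR, unadjusted p = 0.0013, adjusted p = 1.00). With a floor of 3 reads over the summed Mut.oligo libraries, rather than in each library, the summed level came out 10.056-fold higher after miR-92a-1-5p. This value leaves out the spread between libraries and is no lower limit of the treatment difference. Over the settings tried, the fitted log2 fold change went down to 2.72, compared to 3.33 for this value. Untreated libraries held 1 to 11 reads, up to 0.290 CPM, and only 1 of the 4 miR-92a-1-5p libraries lay above all of them. Untreated cultures thus held reads where Mut.oligo libraries held none.

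Both interleukin 1 genes had higher levels in every miR-92a-1-5p library than in any Mut.oligo library. Il1b, the gene of the cytokine processed by inflammasomes (chr2:129364570-129371139), was at 1.13, 1.13, 0.922, and 1.17 CPM in miR-92a-1-5p replicates 1 to 4. In Mut.oligo replicates 1 to 4, it was at 0.362, 0.613, 0.239, and 0.218 CPM. The lowest miR-92a-1-5p library thus exceeded the highest Mut.oligo library, and all 4 exceeded the highest untreated library at 0.541 CPM. The log2 fold change was 1.58 ± 0.32 (SE) with a 95% interval from 0.90 to 2.25, and the unadjusted p of 0.00013 came with an adjusted p of 1.00 (edgeR). These levels rest on 38 to 88 reads per library after miR-92a-1-5p and 6 to 20 after Mut.oligo. Il1a, which encodes the second agonist of the same receptor (chr2:129299610-129309972), was at 0.691, 1.55, 1.29, and 0.744 CPM after miR-92a-1-5p. After Mut.oligo it was at 0.362, 0.521, 0.443, and 0.509 CPM, again without overlap. Its log2 fold change was 1.20 ± 0.37 (SE), with an interval from 0.41 to 1.98 (edgeR, unadjusted p = 0.0051). Replicates 2 and 3, the libraries from the shared batches, were the highest of the miR-92a-1-5p group.

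The chemokine genes Cxcl2, Ccl3, and Ccl4 were higher as well, with Cxcl2 at a difference close to that of Il1a and the others at smaller ones. Of 19 tested chemokine genes, 10 had a positive log2 fold change. Cxcl5 (-0.66), Ccl12 (-0.33), and Ccl7 (-0.29) were among those on the other side, none with an unadjusted p under 0.05 (edgeR). Cxcl2, a neutrophil chemoattractant (chr5:90903871-90905938), was at 1.05, 1.64, 1.36, and 1.38 CPM after miR-92a-1-5p. It was at 0.886, 0.858, 0.307, and 0.291 CPM after Mut.oligo, so that the groups did not overlap and the log2 fold change was 1.21 ± 0.34 (SE). Mut.oligo replicates 1 and 2 lay above the highest untreated library, at 0.685 CPM. Ccl3, also known as MIP-1 alpha (chr11:83647844-83649355), was at 9.68, 9.87, 11.9, and 7.83 CPM after miR-92a-1-5p and at 8.25, 6.35, 3.27, and 4.69 CPM after Mut.oligo. Here the groups overlapped in Mut.oligo replicate 1 only, and all 4 miR-92a-1-5p libraries lay above the highest untreated library at 7.09 CPM. The log2 fold change of Ccl3 was 0.80 ± 0.28 (SE, interval 0.21 to 1.38). Its neighbour Ccl4, or MIP-1 beta (chr11:83662584-83664683), was at 1.94, 2.19, 2.98, and 1.95 CPM compared to 1.65, 1.41, 0.682, and 1.16 CPM, a log2 fold change of 0.88 ± 0.29 (SE) without overlap. Ccl9, a further CC chemokine, had a log2 fold change of 0.50 ± 0.25 (SE), and its interval from -0.04 to 1.04 included 0.

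Tnf and Ptgs2 completed this group. Tnf (chr17:35199381-35202007) was at 3.65, 4.18, 5.97, and 4.53 CPM after miR-92a-1-5p and at 3.70, 2.76, 1.33, and 2.18 CPM after Mut.oligo. The groups overlapped only between replicate 1 of each. The log2 fold change of Tnf was 0.88 ± 0.32 (SE, interval 0.21 to 1.56, edgeR unadjusted p = 0.013). Ptgs2, which encodes the inducible cyclooxygenase COX-2 and is also expressed by neurons (chr1:150100031-150108227), was at 1.99, 2.34, 2.09, and 1.47 CPM compared to 0.685, 1.62, 0.955, and 0.764 CPM. Its log2 fold change was 0.94 ± 0.27 (SE, interval 0.37 to 1.51), and the groups overlapped in one library each. All 4 miR-92a-1-5p libraries were above the untreated range for Tnf, Ccl3, Cxcl2, Il1a, Il1b, and Ptgs2, whereas the mean after Mut.oligo lay within the untreated range for these genes.

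**Figure D2:**
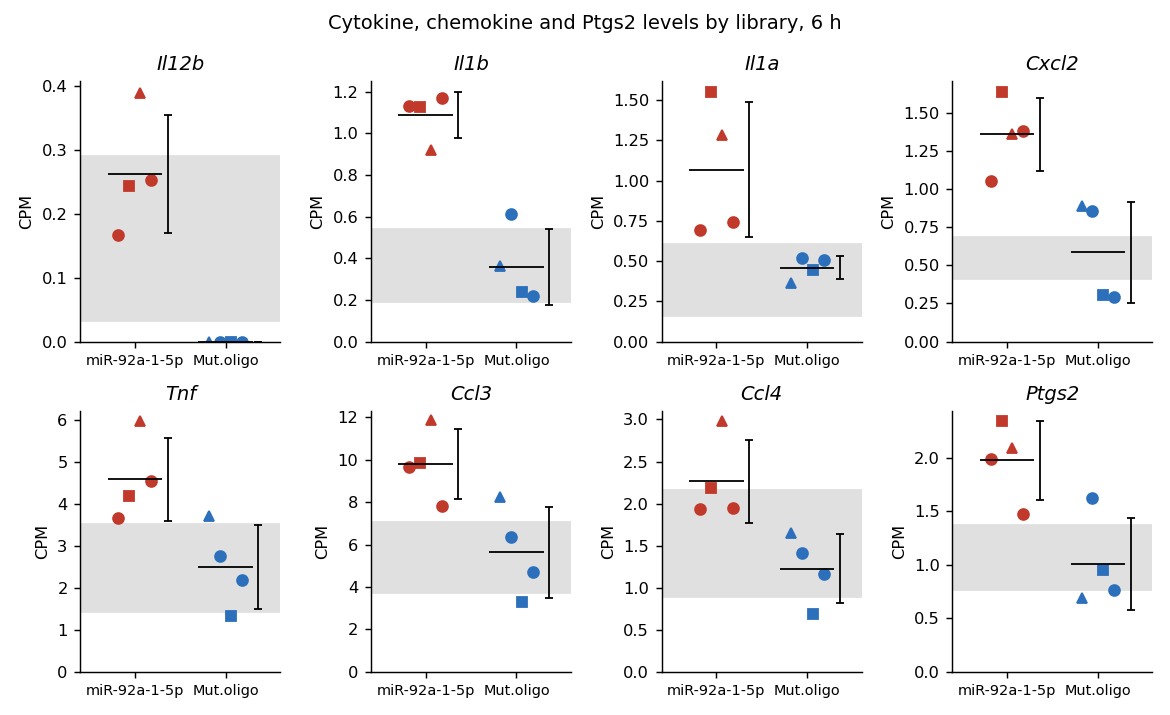
Levels of 8 inflammatory genes in CPM (vertical axes, from 0) in each of the 4 miR-92a-1-5p (red) and 4 Mut.oligo (blue) libraries at 6 h. Squares mark the first and triangles the second shared batch, circles the libraries without a partner, lines and bars the mean ± SD, and the grey band the range of the 4 untreated libraries. Il12b, Il1b, Il1a, Cxcl2, and Ccl4 show no overlap between the groups, and each square and triangle of miR-92a-1-5p lies above its Mut.oligo partner.

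Within the shared batches, where 1 library of each group can be compared at a time, all 8 showed the direction of the whole comparison. The log2 differences in the first and second shared batch were 2.01 and 1.23 for Il1b, 1.68 and 1.68 for Il1a, and 2.22 and 0.59 for Cxcl2. For Tnf they were 1.61 and 0.68, for Ccl3 1.57 and 0.52, for Ccl4 1.61 and 0.83, and for Ptgs2 1.25 and 1.53. Differences in a single pair of libraries have no replicate error. As a reference, the SD of such differences over the 13534 genes with at least 1 CPM was 0.21 in the first and 0.17 in the second batch, and the 2 sets of differences had a correlation across genes of -0.05. The experiment batch was then used as a term over the 8 libraries, a fit with only 1 residual degree of freedom. Here 9 genes (0.048%) passed, 3 with higher and 6 with lower levels after miR-92a-1-5p. Each library outside the shared batches was alone in its batch in this fit. Its fold changes thus rest on the 2 shared pairs above and are no separate evidence. In simulated data without a batch effect, the same fit made 22 false calls. The 3 higher genes were Ccl3 (log2 fold change 1.00 ± 0.17 SE, edgeR adjusted p = 0.018), Acod1 (0.94 ± 0.15 SE, adjusted p = 0.0050), and Tnfrsf1b (0.84 ± 0.15 SE, adjusted p = 0.032). Acod1 encodes the enzyme that makes itaconate in activated macrophages, and Tnfrsf1b encodes a TNF receptor. Without a batch term, the log2 fold change was 0.33 ± 0.32 (SE, edgeR unadjusted p = 0.31) for Acod1 and 0.27 ± 0.27 (SE, unadjusted p = 0.32) for Tnfrsf1b, and it fell to 0.13 without miR-92a-1-5p replicate 2 and to 0.08 without replicate 3, respectively. With the same term over all 16 libraries, 0 genes were called, 526 genes had an unadjusted p under 0.05 (edgeR), and the log2 fold change of Acod1 was 0.67 and that of Tnfrsf1b 0.57. DESeq2 with that term called 0 higher genes and 1 lower gene, the long non-coding RNA Gm26917.

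**Figure D3:**
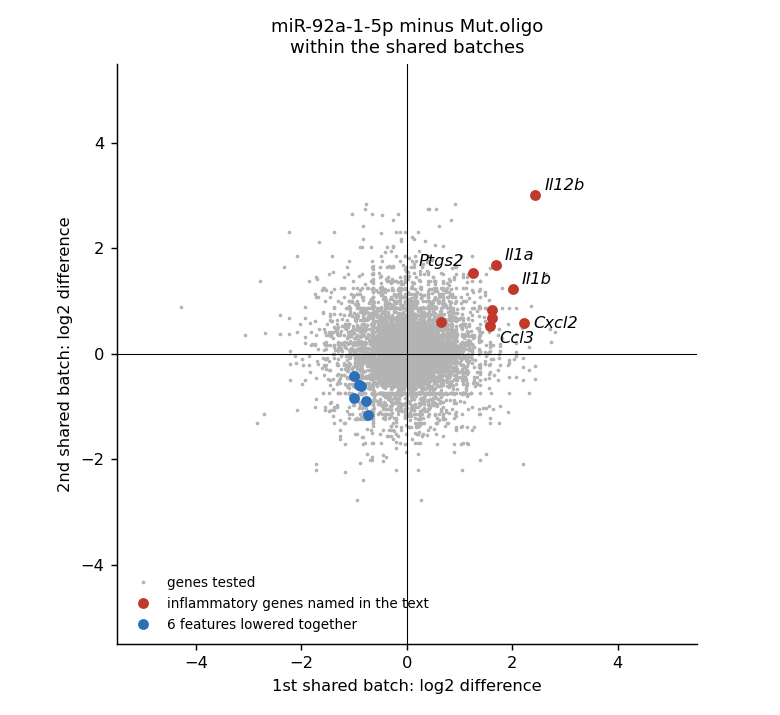
Log2 difference between 1 miR-92a-1-5p and 1 Mut.oligo library in the first (horizontal axis) and the second (vertical axis) shared batch for genes with a mean of at least 0.1 CPM. Red points are 9 inflammatory genes named in the text, all in the upper right quadrant, and blue points are 6 abundant features with lower levels after miR-92a-1-5p (Mir6236, Gm23935, Gm15564, Lars2, CT010467.1, and Gm26917), all in the lower left quadrant.

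Over the whole lists of cytokine and chemokine genes, the direction was mixed. Of 24 cytokine genes listed, 19 had enough reads to be tested, and 4 of them (Il12b, Il1b, Il1a, and Tnf) had an unadjusted p under 0.05, compared to 2.12% of all genes. The median log2 fold change of the list was -0.11, compared to 0.00 for all genes. It did not change with Il12b set to the value from the floor of 3 summed reads. With the experiment batch as a term over 16 libraries, the median was 0.14, within the shared batches it was 0.28 and 0.34, and 10 of the 19 genes were higher in both. The median was 0.07, 0.04, and 0.08 without miR-92a-1-5p replicate 1, Mut.oligo replicate 2, or Mut.oligo replicate 4. Il6, a cytokine that TLR signaling also induces, was at 0.0553 to 0.199 CPM after miR-92a-1-5p and 0.0805 to 0.307 CPM after Mut.oligo, with a log2 fold change of -0.14 ± 0.61 (SE). At 2 to 15 reads per library, a difference in Il6 was not detectable. Il10, an anti-inflammatory cytokine, had a log2 fold change of -0.81 ± 0.49 (SE), with an interval from -1.84 to 0.22. Il18, at 4.11 to 6.60 CPM, had a log2 fold change of 0.16 ± 0.17 (SE), with an interval from -0.20 to 0.52. Of 24 chemokine genes, 19 were tested, and Ccl3, Ccl4, and Cxcl2 had an unadjusted p under 0.05. The list's median was 0.10, it was 0.39 and 0.16 within the shared batches, and 10 of the 19 genes were higher in both. Besides Ccl4 and Cxcl2 only Ccl25 showed no overlap, at lower levels after miR-92a-1-5p (log2 fold change -0.13 ± 0.08 SE). Ccl2 and Ccl5, which attract monocytes and T cells, had log2 fold changes of -0.52 ± 0.53 (SE) and -0.20 ± 0.39 (SE), and Cxcl10 had 0.35 ± 0.39 (SE).

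Genes of the sensing machinery itself did not pass, like all other genes tested. All 29 genes of TLR sensing were tested, with a median log2 fold change of 0.01. With the experiment batch as a term the median was 0.07 over 16 and 0.21 over 8 libraries, within the first and the second shared batch it was 0.38 and 0.07, and 16 of the 29 genes were higher in both, compared to 24% of all genes. Tlr7 was at 0.498 to 0.885 CPM after miR-92a-1-5p and 0.523 to 0.582 CPM after Mut.oligo, with a log2 fold change of 0.26 ± 0.28 (SE, interval -0.33 to 0.86). Myd88 was at 2.99 to 3.72 CPM and 2.90 to 3.78 CPM, with a log2 fold change of 0.12 ± 0.14 (SE). The 2 genes of this list with an unadjusted p under 0.05 were Tlr8 and Tlr9, endosomal receptors as well, both at lower levels after miR-92a-1-5p. Tlr8 had 1, 4, 1, and 5 reads after miR-92a-1-5p and 3, 6, 4, and 7 reads after Mut.oligo, and Tlr9 had 1 to 5 and 3 to 8 reads. Tlr8 showed no overlap in CPM, and both genes stood near the floor of 3 reads. Among 24 NF-kB subunits and feedback genes, only Ptgs2 had an unadjusted p under 0.05. The median of this list was 0.05, it was 0.12 and 0.14 within the shared batches, and 16 of the 24 genes were higher in both. Nfkbia, the inhibitor that NF-kB itself induces, had a log2 fold change of 0.11 ± 0.10 (SE, interval -0.11 to 0.33). Tnfaip3, or A20, which ends NF-kB signaling, was at 4.38 to 5.45 CPM compared to 3.48 to 4.67 CPM, a log2 fold change of 0.25 ± 0.15 (SE).

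The direction of the interferon-stimulated genes depended on how the groups were compared. Of 34 tested genes, 0 had an unadjusted p under 0.05, the median log2 fold change was -0.20, and 5 were positive. With the experiment batch as a term over 16 libraries the median was 0.18, and it was 0.28 and 0.35 within the first and the second shared batch, where 20 of the 34 genes were higher in both, compared to 24% of all genes. Isg15, a ubiquitin-like antiviral protein, was at 0.608, 1.22, 1.82, and 1.25 CPM after miR-92a-1-5p and at 1.37, 0.766, 0.648, and 2.33 CPM after Mut.oligo. For Isg15, miR-92a-1-5p replicate 1 was the lowest of its group and Mut.oligo replicate 4 the highest, and neither of these libraries has a partner of the other group in its batch. Without Mut.oligo replicate 4, the list's median was 0.17. Isg20, an antiviral exonuclease, was the only gene of this list without overlap, at 0.398 to 0.443 CPM compared to 0.218 to 0.368 CPM (log2 fold change 0.53 ± 0.29 SE).

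Microglia are known as a main source of these cytokines in the brain, and their markers were examined beside them. In the comparison of all libraries, 18 of 19 microglia and macrophage markers had a negative log2 fold change, with a median of -0.34. Over all 18755 genes, 9388 had a positive one. Of the 19 markers, 2 had an unadjusted p under 0.05, compared to 2.12% of all genes. These were Cx3cr1, the fractalkine receptor, at 0.226 to 0.800 CPM compared to 0.682 to 1.27 CPM (log2 fold change -1.14 ± 0.36 SE), and the integrin Itgam (-1.01 ± 0.47 SE). With the experiment batch as a term over 16 libraries the list's median was -0.02, and it was 0.39 and -0.01 within the shared batches. The defining markers P2ry12 and Tmem119 were at 0.0277 to 0.173 CPM and 0.0830 to 0.970 CPM after miR-92a-1-5p, and P2ry12 had 0 reads in Mut.oligo replicate 3. Their log2 fold changes over all libraries were -0.72 and -0.52. Thus, higher Il1b, Il1a, Tnf, Ccl3, Ccl4, and Cxcl2 levels went along with microglia marker levels that overlapped between the groups, and the part of microglia number in these levels was not tested. Fibroblast and meningeal markers also had a negative median, -0.64 over 6 genes, with summed levels of 42.1 to 184.9 CPM after miR-92a-1-5p and 91.6 to 295.5 CPM after Mut.oligo. The astrocyte markers had a median of 0.03, the oligodendrocyte lineage of 0.15, and the neuronal markers of 0.05.

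The promoters of the inflammatory genes were searched for the consensus motif of NF-kB, on both strands, in the 250 bases before and 50 bases after the annotated start (RefSeq, GRCm38.p6). A promoter entry was found for 7 of the 8 genes and not for Ccl4. The motif was present in that of Cxcl2, which held 2 overlapping matches starting 97 bases upstream of the RefSeq start, while 2211 of 27025 promoters (8.18%) held it. For Cxcl2 and Ccl3, the RefSeq start differs from that of the gene coordinates given above, which came from GENCODE. The promoter of Cxcl2 at chr5:90903649-90903948 (plus strand, matches in capitals) is shown beside that of Il12b at chr11:44399813-44400112 (plus strand, no match), the gene with the widest gap between the groups.
Cxcl2 promoter: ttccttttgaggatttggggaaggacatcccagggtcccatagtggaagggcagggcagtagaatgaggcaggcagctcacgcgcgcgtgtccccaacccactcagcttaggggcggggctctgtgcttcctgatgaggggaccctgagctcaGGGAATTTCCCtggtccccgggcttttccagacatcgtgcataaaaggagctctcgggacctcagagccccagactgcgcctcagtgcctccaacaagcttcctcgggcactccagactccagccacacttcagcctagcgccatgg
Il12b promoter: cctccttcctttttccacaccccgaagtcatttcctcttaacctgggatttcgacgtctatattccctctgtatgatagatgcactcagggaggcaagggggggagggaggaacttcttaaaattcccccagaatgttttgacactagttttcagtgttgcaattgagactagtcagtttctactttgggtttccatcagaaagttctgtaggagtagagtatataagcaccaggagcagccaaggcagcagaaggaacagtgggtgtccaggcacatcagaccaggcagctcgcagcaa
A match of letters describes the sequence and shows no binding. A promoter without a match can carry sites outside this window, or sites within it that depart from the consensus.

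As for all genes tested, no gene of neuronal activity passed at 6 h. Of 33 immediate early genes tested, the only one with an unadjusted p under 0.05 was Klf10, a TGF-beta inducible transcription factor, with a log2 fold change of 0.27 ± 0.10 (SE), which was -0.01 with the experiment batch as a term over the 8 libraries. Fos, which marks recent activity, was at 3.93, 9.56, 5.87, and 6.90 CPM after miR-92a-1-5p and at 6.40, 9.66, 11.2, and 3.27 CPM after Mut.oligo. Its spread within each group exceeded the difference between them (log2 fold change -0.22 ± 0.46 SE), and untreated libraries ranged from 5.02 to 19.2 CPM. None of 34 activity-regulated secreted and synaptic genes had an unadjusted p under 0.05, and the list's median was 0.02. Vgf, a neuropeptide precursor, was at 42.0 to 73.3 CPM and 44.0 to 79.0 CPM (log2 fold change -0.05 ± 0.24 SE). Adcyap1, which encodes the neuropeptide PACAP, was at 9.82 to 13.1 CPM and 4.58 to 18.9 CPM (-0.08 ± 0.33 SE). For the regulator of G protein signaling Rgs4, the log2 fold change was -0.10 ± 0.22 (SE), and for the histone deacetylase Hdac9 it was -0.04 ± 0.21 (SE). In Adcyap1, Vgf, Rgs4, and Hdac9, Mut.oligo replicate 3 was the highest library of its group, and replicate 4 was the lowest.

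Genes of glutamatergic synapses and of the extracellular matrix did not pass either, as was the case for all genes tested. Of 34 glutamate receptor and TARP genes, 0 had an unadjusted p under 0.05, with log2 fold changes between -0.19 and 0.28 and a median of 0.02. Grm2, an inhibitory metabotropic receptor, was at 28.8 to 41.9 CPM after miR-92a-1-5p and 22.6 to 38.3 CPM after Mut.oligo, a log2 fold change of 0.16 ± 0.16 (SE). Of the 8 libraries, only miR-92a-1-5p replicate 4 reached the untreated range of 39.9 to 57.7 CPM. Cacng5, an auxiliary subunit of AMPA receptors, had a log2 fold change of 0.06 ± 0.16 (SE, interval -0.28 to 0.41). Perineuronal net genes had a median of -0.08 over 18 genes, none with an unadjusted p under 0.05. Cybb, the catalytic subunit of the phagocyte NADPH oxidase, was at 7.22, 8.38, 9.10, and 2.84 CPM compared to 6.20, 7.30, 5.80, and 6.99 CPM. Its log2 fold change was 0.06 ± 0.34 (SE) over all libraries and 0.32 without miR-92a-1-5p replicate 4, the lowest library.

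Genes with a seed site were examined next, since silencing by either RNA would act on them. A site was defined as the 7 bases complementary to the seed, CCCAACC for miR-92a-1-5p and CTACCTC for let-7b, in the longest annotated 3′ UTR of a gene. Of 15298 tested genes with a 3′ UTR, 1571 (10.3%) held a miR-92a-1-5p site and 1583 (10.3%) a let-7b site. The median log2 fold change was -0.0011 for genes with a miR-92a-1-5p site, 0.0043 for genes with a let-7b site, and 0.0026 for all genes with a 3′ UTR. Levels were lower after miR-92a-1-5p for 50.3%, 47.8%, and 48.6% of these genes, respectively. With the longer site of 8 bases, in which an A follows the seed match, the medians were 0.0049 over 430 genes and 0.0035 over 557 genes. At an unadjusted p under 0.05, 23 genes with a miR-92a-1-5p site were higher and 12 lower (2.23% of them), 27 genes with a let-7b site were higher and 5 lower (2.02%), and 183 of all genes with a 3′ UTR were higher and 105 lower (1.88%). With the 8-base site, 9 genes were higher and 4 lower for miR-92a-1-5p, and 15 were higher and 1 lower for let-7b. These splits were not tested. The medians of both site groups thus lay within the second decimal of that of all genes, whereas among genes with a let-7b site the few with a small p were mostly higher after miR-92a-1-5p. Moreover, genes with sites had longer 3′ UTRs, with medians of 2266 and 2359 bases compared to 1170 bases over all. Sites in the longest UTR need not be in the isoform that these neurons express.

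**Figure D4:**
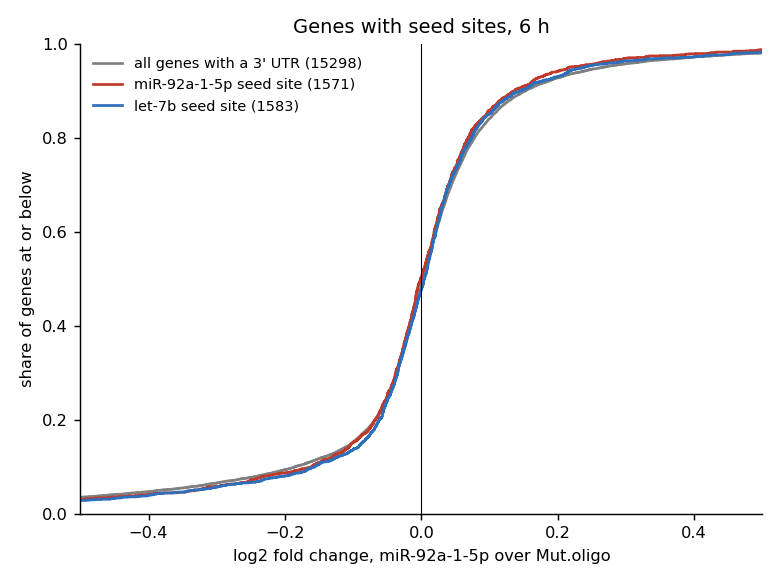
Share of genes (vertical axis) at or below a given log2 fold change of miR-92a-1-5p over Mut.oligo (horizontal axis, shown from -0.5 to 0.5) for the 15298 tested genes with a 3′ UTR, the 1571 genes with a miR-92a-1-5p seed site, and the 1583 genes with a let-7b seed site. The 3 curves run close together and cross 0 between 47.8% and 50.3%.

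Known targets of let-7 gave no call, which holds for every gene tested. Of 34 listed targets, 32 were tested, 0 had an unadjusted p under 0.05, compared to 2.12% of all genes, and the median was 0.01. Hmga2, a chromatin protein and classic let-7 target, was at 0.360 to 0.534 CPM after miR-92a-1-5p and 0.327 to 0.819 CPM after Mut.oligo (log2 fold change -0.33 ± 0.28 SE). The RNA-binding protein gene Lin28b, which blocks let-7 maturation and is silenced by let-7, had -0.19 ± 0.25 (SE), and the ubiquitin ligase gene Trim71 had -0.16 ± 0.21 (SE). The 16 genes of the miRNA machinery had log2 fold changes between -0.11 and 0.02, and the 32 genes of endocytic uptake and endosomes between -0.21 and 0.17, with medians of -0.02 and 0.00.

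Genes with at least 1 CPM and no overlap between groups were then taken from the whole table. The 10 such genes with the smallest p and higher levels after miR-92a-1-5p were Taf9b, Rpl13a, Stac, Rap2c, Hccs, Ugt8a, Ccl4, Ccdc32, Narfl, and Nfatc2. Ccl4, described above, had the largest difference among them, and the other 9 had log2 fold changes between 0.11 and 0.42. Taf9b, a subunit of the general transcription machinery, was at 24.7, 23.5, 23.8, and 26.5 CPM compared to 21.8, 22.0, 21.8, and 21.4 CPM. Its log2 fold change was only 0.18 ± 0.05 (SE), and the untreated range of 24.1 to 25.5 CPM lay above all Mut.oligo libraries. Stac, which regulates L-type calcium channels, was at 7.83, 6.64, 6.62, and 7.02 CPM compared to 5.28, 5.55, 5.97, and 4.15 CPM (0.42 ± 0.12 SE), with untreated libraries at 6.09 to 8.07 CPM. Rap2c, a small GTPase, had 0.22 ± 0.06 (SE), and Nfatc2, a calcineurin-dependent transcription factor, had 0.29 ± 0.10 (SE). Ugt8a, which makes galactosylceramide, a myelin lipid, was at 3.40 to 3.95 CPM compared to 2.44 to 3.38 CPM (0.42 ± 0.13 SE). For Taf9b, Hccs, and Stac, no Mut.oligo library reached the untreated range, whereas the miR-92a-1-5p libraries lay in or next to it. Rpl13a, with 0.21 ± 0.06 (SE), has many near-identical pseudogene copies, so that its reads are uncertain.

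The 10 genes at the lower end included Nlrp5-ps, Map3k15, Sfxn2, Tbc1d2, Slirp, Mrpl41, Zfp422-ps, Trit1, and Slc2a4rg-ps. Map3k15, a stress-activated kinase also named ASK3, was at 0.968, 0.907, 1.04, and 0.903 CPM after miR-92a-1-5p and at 1.45, 1.23, 1.40, and 1.24 CPM after Mut.oligo. Its log2 fold change was -0.48 ± 0.17 (SE), and it was -0.60 and -0.45 within the shared batches. Tbc1d2, a GTPase-activating protein for Rab7, was at 0.752 to 1.09 CPM compared to 1.09 to 1.96 CPM (-0.58 ± 0.23 SE). Nlrp5-ps had -0.54 ± 0.18 (SE), and Sfxn2, Slirp, Mrpl41, and Trit1 had log2 fold changes between -0.28 and -0.12. Nlrp5-ps, Zfp422-ps, and Slc2a4rg-ps are pseudogenes, whose reads may be shared with related genes.

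A set of 6 features differed at high levels, and was singled out after its values were seen. Mir6236, Gm23935, Gm15564, Lars2, CT010467.1, and Gm26917 were abundant and had log2 fold changes between -0.77 and -0.36. CT010467.1 is annotated as ribosomal RNA, Gm26917 is its neighbour on chromosome 17, and Lars2 encodes the mitochondrial leucyl-tRNA synthetase. Gm23935 was at 225, 119, 136, and 97.9 CPM after miR-92a-1-5p and at 252, 252, 203, and 276 CPM after Mut.oligo. Lars2 was at 317, 152, 195, and 134 CPM compared to 296, 325, 285, and 310 CPM, and Mir6236 was at 277, 105, 136, and 88.8 CPM compared to 242, 242, 212, and 252 CPM. In these features, miR-92a-1-5p replicate 1 lay within or above the Mut.oligo range and replicates 2 to 4 lay below it. CT010467.1 departed from this order, with 289 CPM in miR-92a-1-5p replicate 4 and 173 CPM in Mut.oligo replicate 4. Untreated libraries were at 264 to 303 CPM for Gm23935 and 349 to 385 CPM for Lars2, on the side of Mut.oligo. All 6 were lower within both shared batches, compared to 4043 of all 18755 genes. They also made up the 6 lower genes in the fit of 8 libraries with the experiment batch, which rests on the same 2 batches. Over the 8 libraries, the groups overlapped for all 6. Without miR-92a-1-5p replicate 1, Mir6236 (log2 fold change -1.11 ± 0.14 SE, edgeR adjusted p = 0.018) and Lars2 (-0.93 ± 0.13 SE, adjusted p = 0.031) passed. The part of ribosomal RNA in the reads of the other 5 features was not tested.

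Genes of cell stress and death showed no call, as no gene tested did. Of 32 apoptosis and p53 genes tested, Bid, a proapoptotic BH3 protein, and Xiap, a caspase inhibitor, had an unadjusted p under 0.05. Bid was at 24.7 to 30.7 CPM compared to 23.2 to 25.4 CPM (log2 fold change 0.19 ± 0.08 SE), and Xiap had 0.09 ± 0.04 (SE). In the integrated stress response, 23 of 25 genes were positive with a median of 0.12, compared to 9388 of all 18755 genes, and 0 had an unadjusted p under 0.05. The highest levels were found in miR-92a-1-5p replicate 4, in which Shmt2, a mitochondrial serine enzyme, was at 55.2 CPM and the serine synthesis gene Psat1 at 154 CPM. The other 3 libraries were at 31.6 to 34.6 CPM and 80.5 to 95.8 CPM, respectively. Summed over the 25 genes, miR-92a-1-5p replicate 4 was at 2431 CPM. Untreated replicate 2, from the same experiment batch, was at 2360 CPM, and the Mut.oligo libraries were at 1800 to 1989 CPM. With the experiment batch as a term over 16 libraries, the median was 0.01, and within the shared batches it was -0.05 and -0.03.

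**Figure D5:**
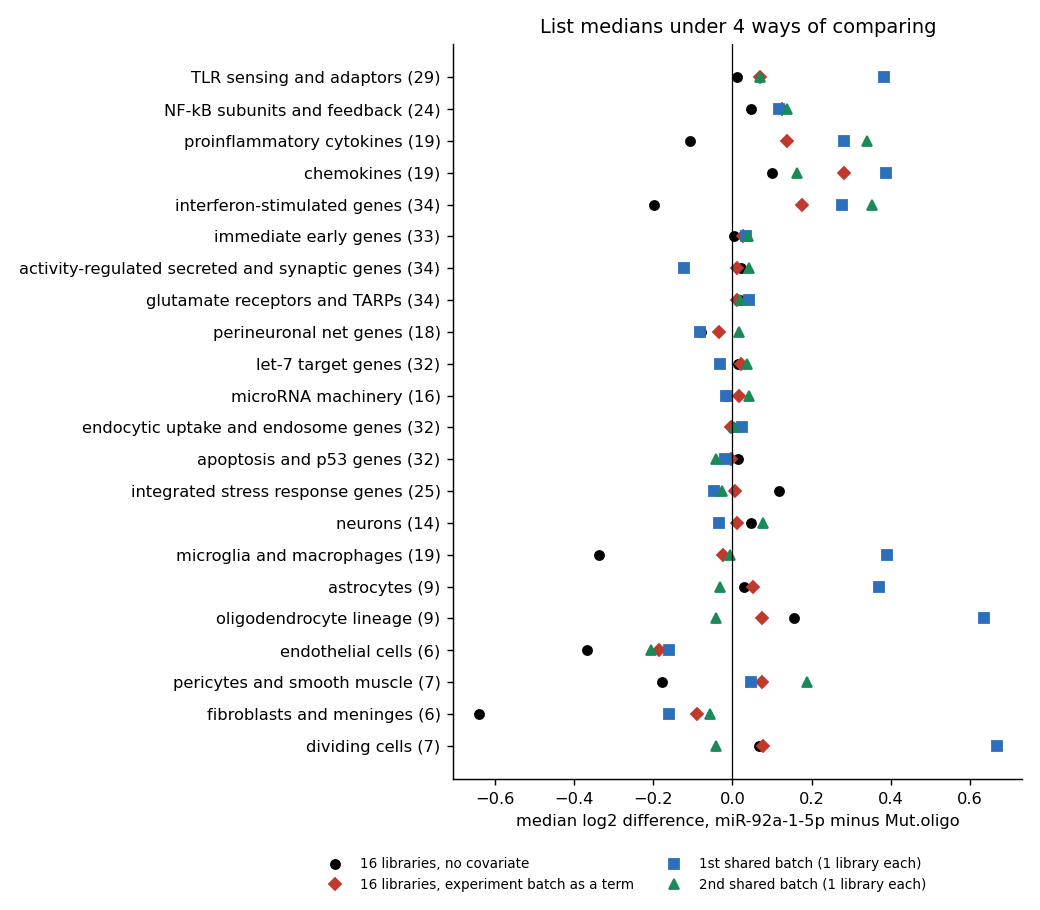
Median log2 difference of miR-92a-1-5p minus Mut.oligo (horizontal axis) for 14 pathway lists and 8 marker lists, with the number of genes tested in parentheses. Symbols give the comparison of all libraries, the same with the experiment batch as a term, and the differences within the shared batches, with 1 library of each group. Cytokine and interferon-stimulated genes lie below 0 in the first and above 0 in the other 3 ways of comparing.

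The contrast between miR-92a-1-5p and Mut.oligo at 6 h was set against the same contrast after 5 d. The difference between the contrasts passed for 0 of 20425 genes (edgeR, interaction term), and 427 genes had an unadjusted p under 0.05. At 5 d, the cytokine genes had few reads in either group. Il1b had 0 to 7 reads after miR-92a-1-5p and 4 to 8 after Mut.oligo, Tnf had 0 to 13 and 2 to 5, and Il12b had at most 2 and 1. More reads were counted for Ptgs2, with 44 to 111 after miR-92a-1-5p and 20 to 247 after Mut.oligo, for Cxcl2, with 13 to 50 and 3 to 104, and for Ccl3, with 25 to 36 and 18 to 24. These reads are not scaled to depth. For Il1b, the interaction had an unadjusted p of 0.0087 and an adjusted p of 1.00 (edgeR).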

How the data were processed

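Counts per gene were the only values used. The authors mapped the 75 bp single-end reads of stranded, poly(A)-selected libraries to GRCm38 with STAR, counted reads on exons on their own strand with featureCounts (Subread), and deposited these counts without normalization for 49671 genes. Symbols, coordinates, and 3′ UTRs came from GENCODE M21 of the same build, which held 49326 of the identifiers. Of the 32 deposited columns, 0 were left unmapped. The filter kept genes reaching 5 counts in 3 or more of the 16 libraries of 6 h. The model was edgeR 4.0.16 (R 4.3.3) (TMM normalization, 1 coefficient per group, quasi-likelihood test, Benjamini-Hochberg adjustment) without a covariate, as the study's methods name none, and genes were called below an adjusted p of 0.05 when the absolute log2 fold change exceeded 0.5. CPM were scaled to the TMM library size. Within-batch differences are of log2 CPM with a prior count of 2. DESeq2 1.42.0, the experiment batch, the replicate number, RLE size factors, other filters, no minimum fold change, only the 8 libraries, and each library left out were tried as alternatives. Replicates of a group differed beyond sampling noise, with a chi-square per degree of freedom of 7.10 to 22.5, and each carried a different experiment batch. Simulated counts were used to check the fits. Without a batch effect in them, the main fit made 4 false calls and recovered 89% of 2-fold changes. The fit of 8 libraries with the experiment batch made 22 false calls and recovered 69%. With a simulated batch effect, false calls numbered 1 and 3 in these fits, and recovery was 96% and 99%, respectively. That second simulation replaced the estimated dispersions of the genes by a low constant. Its numbers are thus not comparable to the first and do not show performance at the real spread between replicates. In both simulations, changed genes were drawn only from those above 1 CPM. Depth was 24514090 to 73626029 counts.

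Genes named in the text were those past the threshold, filled to 10 per direction by the smallest p among named genes with at least 1 CPM and no overlap, those that the study names at 6 h, and from each pathway list the 3 with the smallest p and the 2 with the highest level. Others are named as list members whose values a statement needs. Values of 2 genes are not reported here. The lists and groups of genes were chosen with earlier results of these data known. The sequence of Mut.oligo is not printed here. The authors' comparisons, RT-qPCR, viability, and reporter data were not analysed here.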

Additional observations from a re-analysis of the deposited data

Results flagged for a closer look

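In 9 of 210 groups of 4 libraries, over the 105 genes followed, 1 library lay apart from the other 3 by Dixon's criterion, which chance alone gives in about 1 of 20 groups. After miR-92a-1-5p, replicate 1 stood apart for Gm26917 (30.8 CPM, the others at 13.8 to 16.5) and for Mcl1 (166 CPM, 154.1 to 154.4). Replicate 2 stood apart for Isg20 (0.398 CPM, 0.437 to 0.443), replicate 3 for Il1b (0.922 CPM, 1.13 to 1.17) and for Trit1 (15.3 CPM, 16.5 to 16.6), and replicate 4 for Shmt2 (55.2 CPM, 31.6 to 34.6). After Mut.oligo, replicate 1 stood apart for Mrpl41 (32.3 CPM, 28.3 to 28.8), replicate 3 for Jun (58.1 CPM, 72.4 to 75.1), and replicate 4 for Timp1 (1.06 CPM, 0.337 to 0.443).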

How the results depend on the processing

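The count of 0 genes at higher and 0 at lower levels after miR-92a-1-5p was the same with RLE size factors, DESeq2 without a covariate, the experiment batch over 16 libraries, only the 8 libraries, no filter, at least 10 counts in every library, and no minimum fold change. It became 3 higher and 6 lower with the experiment batch over 8 libraries, and 1 lower (Gm26917) with the experiment batch in DESeq2. When each library was left out in turn, 0 genes were higher and 0 to 2 lower, the 2 without miR-92a-1-5p replicate 1. Genes at an unadjusted p under 0.05 numbered 130 in DESeq2 with the experiment batch, 617 with the experiment batch over 8 libraries, 827 without a filter, and 228 with at least 10 counts in every library. They ranged from 274 to 711 when a library was left out, with 631 without miR-92a-1-5p replicate 2, 613 without miR-92a-1-5p replicate 3, and 711 without Mut.oligo replicate 3. The causes were not tested. Of the 105 genes followed, 61 had one sign under every setting in which they were tested, among them Il12b, Il1b, Il1a, Tnf, Ccl3, Ccl4, Cxcl2, and Ptgs2. Il12b, Il1b, Il1a, and Cxcl2 were not tested with at least 10 counts in every library. The settings reuse the same libraries, and the genes followed include those picked for no overlap or after their values were seen. For such genes, a constant sign is largely given by the choice and is no separate evidence. Of 24 medians of lists and seed site genes, 4 kept one sign under every setting. With the replicate block, 0 genes were higher, 0 lower, and 315 had an unadjusted p under 0.05. Libraries with the same number did not deviate together in all pairs (correlations -0.15, 0.37, -0.48, and 0.27), and 1 of 4 was closest to its own number, so the numbers pair no samples. The 2 pairs that share an experiment batch had 0.37 and 0.45, and the highest of the 16 cross-group pairs, from different batches, had 0.57. The SD of log2 differences was 0.157 between replicates 2 of both groups, from different batches. It was 0.214 and 0.167 in the first and second shared batch, so that sharing a batch did not mark the closest libraries. The difference between 6 h and 5 d stayed at 0 genes with the experiment batch or the replicate block. Depth limits Il12b, Il6, Tlr8, and Tlr9, which had 0 to 19 reads per library.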
